A study of Mus musculus with 15 samples.

Results

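The butyrophilin-like (Btnl) genes were examined in the distal colon of B6 and Irf1-/- mice. They were taken by their symbol, as every gene named Btnl followed by a digit, and 5 were named at the outset (Btnl1, Btnl2, Btnl4, Btnl5 and Btnl6). Of these 5 genes, 4 were present in each of the 3 deposited count tables, among 12370 genes that the tables share. Btnl2 was in none of the tables and is not analysed here. The set was proposed because Btnl6 was among the largest decreases in untreated Irf1-/- colons, so the untreated values below are given as a description, with no test. Tests are given for the treated mice and for the responses to treatment.

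Butyrophilin-like proteins are membrane proteins of the immunoglobulin superfamily, related to the B7 ligands that act on T cells. In the mouse gut they are made by enterocytes, the absorptive cells that line the lumen. Btnl1 is the common partner there, pairing with Btnl6 or with Btnl4 at the enterocyte surface, and the paired proteins act on gamma-delta T cells that live between the epithelial cells (intraepithelial lymphocytes). Btnl2 is known instead as an inhibitor of T cell activation. Irf1 encodes a transcription factor that is induced by interferon-gamma and activates interferon-inducible genes.

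RNA was sequenced from 15 colons of C57BL/6 mice in 5 groups of 3. Untreated wild-type B6 mice formed 2 sets, which the labels distinguish only by a numeral (control sets 1 and 2), and untreated Irf1-/- mice formed the third group. B6 and Irf1-/- mice were also taken at D26 of a colitis-associated cancer protocol, after 1 injection of the carcinogen azoxymethane (AOM, 7 mg/kg, D1) and 1 cycle of dextran sulfate sodium (DSS, 2%, D8 to D11), which injures the colon epithelium. The labels give neither age nor sex, nor whether B6 and Irf1-/- mice were littermates, and the Irf1-/- mice carry the mutation in every cell.

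Libraries held 22266607 to 22869853 counts each. Irf1 itself was counted at 79.4 to 123 CPM (counts scaled to a common library total) in the 6 Irf1-/- libraries and at 128 to 227 CPM in the 9 B6 libraries. The ranges did not overlap, but a gene-level count does not show whether the deleted part of Irf1 was covered. Enterocyte genes were abundant in every library, with 33 of 37 listed markers in all 3 tables and a summed level of 22379 to 28423 CPM. Listed genes of intraepithelial lymphocytes were sparse. Only 7 of 47 were in all tables (Cd8b1, Itgae, Itgb7, Ahr, Gpr18, Sox13 and Rora), and Cd3e, Cd8a, Cd160, Gzma, Gzmb and Ccl5 were in none. The B6 D26 libraries stood apart in base composition. The slope of log2 counts on gene GC content was 0.15 to 0.31 per 10% GC there, against -0.14 to 0.03 in the other 12 libraries. The GC content of the Btnl transcripts, 50.7 to 52.0%, was near the median of all genes, 50.0%.

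The Btnl genes lie side by side on mouse chromosome 17, within the major histocompatibility complex. In the RefSeq gene order Btnl2 and Btnl1 come first, on the H2-Eb1 side, and Btnl4, Btnl5 and Btnl6 follow towards Notch4. RefSeq and GENCODE list Btnl5 as a transcribed pseudogene (Btnl5-ps), while the deposited tables carry it as Btnl5. Btnl4, Btnl5 and Btnl6 were close copies of each other. Their reference transcripts were 90.1 to 90.6% identical over aligned bases, whereas Btnl1 was 63.0 to 64.2% identical to these 3. Read assignment was therefore examined at the read length of 50 bases. None of the 3222 stretches of 50 bases in Btnl1 transcripts occurred in another gene. The shared fraction was 14.0% for Btnl4, 14.6% for Btnl5 and 6.58% for Btnl6, and most of it was shared within the cluster, with 212 stretches common to Btnl4 and Btnl5. A part of the reads of Btnl4, Btnl5 and Btnl6 could thus have been assigned to one another, and these 3 values carry that uncertainty.

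The promoters of the measured genes, from 250 bases before to 50 bases after the RefSeq start (GRCm38.p6), are shown because the genes differed in how far they were reduced in Irf1-/- colons. Btnl1 (chr17:34376882-34377181, plus strand) is written with a match to the HNF4 motif CAAAGTCC in capitals, HNF4 being a transcription factor of enterocyte identity. Btnl4 (chr17:34475888-34476187, minus strand) and Btnl6 (chr17:34517303-34517602, minus strand) are written with the bases that differ between them in capitals. All 3 are given 5′ to 3′ on the strand of the gene, and the RefSeq table used here gave no Btnl5 entry.
Btnl1: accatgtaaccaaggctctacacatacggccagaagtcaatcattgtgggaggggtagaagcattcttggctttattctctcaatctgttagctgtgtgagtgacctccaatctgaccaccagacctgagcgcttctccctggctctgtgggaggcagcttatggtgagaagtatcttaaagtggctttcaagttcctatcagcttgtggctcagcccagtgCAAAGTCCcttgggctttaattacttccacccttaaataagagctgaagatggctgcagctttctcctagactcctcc
Btnl4: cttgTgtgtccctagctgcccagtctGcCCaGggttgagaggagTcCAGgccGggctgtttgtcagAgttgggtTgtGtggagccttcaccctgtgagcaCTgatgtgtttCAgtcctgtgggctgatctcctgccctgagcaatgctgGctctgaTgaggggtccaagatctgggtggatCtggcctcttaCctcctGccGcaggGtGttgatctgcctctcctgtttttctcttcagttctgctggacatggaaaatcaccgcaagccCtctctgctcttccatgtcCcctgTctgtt
Btnl6: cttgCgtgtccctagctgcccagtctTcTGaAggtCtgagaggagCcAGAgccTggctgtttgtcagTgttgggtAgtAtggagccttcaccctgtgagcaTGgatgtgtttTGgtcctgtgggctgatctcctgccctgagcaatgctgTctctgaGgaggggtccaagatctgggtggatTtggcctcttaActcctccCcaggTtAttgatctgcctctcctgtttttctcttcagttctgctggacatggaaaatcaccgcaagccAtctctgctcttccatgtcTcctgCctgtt
The Btnl4 and Btnl6 promoters matched at 272 of 299 aligned bases (91.0%). Btnl1 matched them at 59.3% and 56.5% of aligned bases. The motif search covered both strands and 3 motifs. The HNF4 motif CAAAGTCC occurred once in Btnl1, with its first base at -28 from the start, and in neither Btnl4 nor Btnl6. It occurred in 1.42% of the 32851 promoters of that length that were searched, which did not include every chromosome. The interferon-stimulated response element, searched as a pair of GAAA half-sites with 2 bases between them, occurred in none of the 3 and in 3.44% of the promoters searched. The gamma-activated sequence TTCNNNGAA occurred in none of the 3 and in 8.30% of the promoters searched. With a single match, none overlapped another. These searches say only whether those letters stand in these windows.

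Levels are given as CPM after TMM scaling, which sets the libraries to a common scale from the bulk of their genes. Btnl6, the partner of Btnl1 with the widest range here, stood at 82.8, 81.9 and 77.9 CPM in the 3 treated B6 mice and at 8.95, 10.5 and 9.41 CPM in the 3 treated Irf1-/- mice. In untreated mice it stood at 70.3, 73.7 and 86.1 CPM in control set 1, at 65.6, 44.0 and 61.1 CPM in control set 2, and at 9.02, 10.3 and 12.5 CPM in Irf1-/- colons. The genotypes did not overlap, whether treated or not: the highest of the 6 Irf1-/- libraries was at 12.5 CPM and the lowest of the 9 B6 libraries at 44.0 CPM. How many of all genes separate over all 15 libraries was not counted, here or for Btnl5 and Btnl4 below. All Irf1-/- libraries were lower for 14.5% of all genes in treated mice and for 7.57% against control set 2.

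Btnl5, the pseudogene, gave 218, 211 and 216 CPM in treated B6 mice and 106, 98.4 and 98.0 CPM in treated Irf1-/- mice. Its untreated values were 191, 213 and 209 CPM in control set 1, 199, 162 and 198 CPM in control set 2, and 106, 108 and 107 CPM in Irf1-/- colons. The genotypes were again apart, and the spread among untreated Irf1-/- mice was small (107 ± 0.882 CPM, SD, n = 3).

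Btnl4, the other partner of Btnl1, gave 54.9, 53.8 and 52.9 CPM in treated B6 mice and 27.5, 24.0 and 24.4 CPM in treated Irf1-/- mice. Untreated, it gave 55.3, 52.8 and 50.5 CPM in control set 1, 51.2, 41.7 and 46.8 CPM in control set 2, and 25.5, 25.3 and 27.7 CPM in Irf1-/- colons. The 9 B6 libraries were all above the 6 Irf1-/- libraries.

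Btnl1, the common partner, had the lowest level of the 4 in B6 mice, while in Irf1-/- mice it was close to Btnl6. It gave 18.8, 35.7 and 23.6 CPM in treated B6 mice and 8.82, 9.38 and 10.9 CPM in treated Irf1-/- mice. In untreated mice the values were 23.7, 25.7 and 18.7 CPM in control set 1, 14.2, 12.2 and 14.8 CPM in control set 2, and 12.8, 11.1 and 12.6 CPM in Irf1-/- colons. Here the genotypes overlapped, since the lowest mouse of control set 2 (12.2 CPM) lay within the untreated Irf1-/- range. The same mouse, replicate 2 of control set 2, was the lowest of the 9 B6 mice for all 4 genes. Its summed enterocyte markers, 22379 CPM, were also the lowest of the 15 libraries. Per 1000 counts of the enterocyte markers, control set 2 spanned 0.541 to 0.544 for Btnl1, 1.72 to 1.97 for Btnl4, 7.24 to 7.64 for Btnl5 and 1.97 to 2.52 for Btnl6. The part of the enterocyte fraction in the low values of that mouse was not tested.

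**Figure D1:**
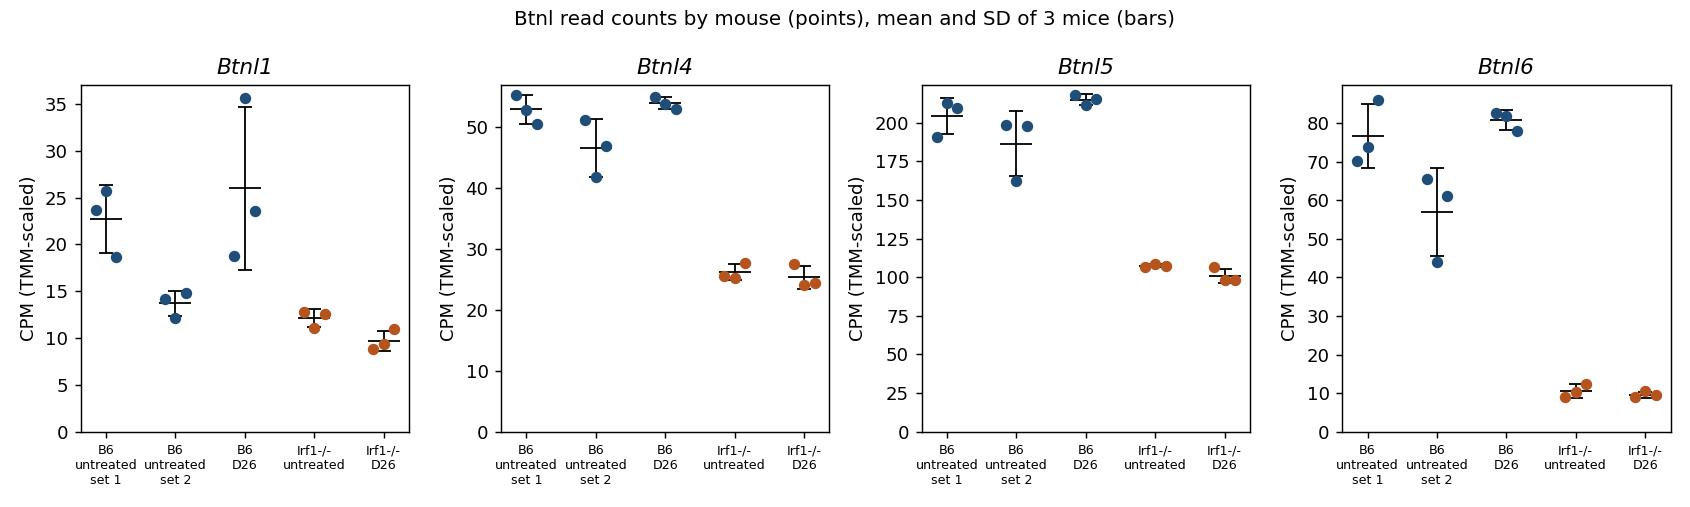
Level of Btnl1, Btnl4, Btnl5 and Btnl6 (vertical axes, CPM after TMM scaling, each starting at 0) in each mouse of the 5 groups (horizontal axis). Points are mice, blue for B6 and orange for Irf1-/-, and bars give the mean and SD of 3 mice. For Btnl4, Btnl5 and Btnl6 all orange points lie below all blue points, while Btnl1 in control set 2 reaches down to the untreated Irf1-/- range. The share of all genes that separate in this way was not counted.

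The order of the members was compared as CPM per kilobase of transcript, since CPM alone favours long transcripts. In B6 colons Btnl5 was highest (92.5 to 124 CPM per kb over 9 libraries), followed by Btnl6 (27.2 to 53.1), Btnl4 (23.7 to 31.4) and Btnl1 (5.76 to 16.9). The Btnl6 and Btnl4 ranges overlapped across mice, but within each of the 9 libraries Btnl6 exceeded Btnl4, by 1.15 to 1.85 times per kb. In Irf1-/- colons Btnl5 was again highest (56.0 to 61.8 CPM per kb over 6 libraries) and Btnl4 was next (13.6 to 15.7). There Btnl6 (5.53 to 7.71) lay below Btnl4 in every library, at 0.354 to 0.491 times its level, and overlapped the range of Btnl1 (4.17 to 6.06).

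The first tested question was whether the genotype difference was present in treated mice, whose libraries were not part of the untreated contrast that proposed the genes, although earlier results of the whole series were known. At a fold of at least 1.5 and an adjusted p under 0.01, 3 of the 4 Btnl genes were lower in treated Irf1-/- than in treated B6 colons, against 0.312% of the 12483 genes tested. Btnl6 fell most, by 8.50-fold (log2 fold change -3.09, SE 0.09, 95% interval -3.30 to -2.87, adjusted p = 1.62e-06, edgeR quasi-likelihood test with Benjamini-Hochberg adjustment), and had the smallest p-value of all genes tested. Btnl5 fell by 2.15-fold (log2 fold change -1.11, SE 0.08, 95% interval -1.30 to -0.92, adjusted p = 0.000594 by edgeR). Btnl4 likewise fell by 2.15-fold (log2 fold change -1.10, SE 0.09, 95% interval -1.31 to -0.90, adjusted p = 0.000843 by edgeR).

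Btnl1 did not pass the adjusted threshold of 0.01 (log2 fold change -1.44, SE 0.22, 95% interval -1.94 to -0.93, adjusted p = 0.0176 by edgeR). Its SE was the widest of the 4, beside a spread among treated B6 mice of 26.0 ± 8.72 CPM (SD, n = 3), against 9.71 ± 1.09 CPM in treated Irf1-/- mice. For all 4 genes every treated Irf1-/- library was below every treated B6 library, as was the case for 14.5% of all genes. The Btnl1 call depended on the fit, with an adjusted p of 5.51e-08 under the DESeq2 Wald test and 0.000438 when all 15 libraries shared 1 edgeR fit. Without replicate 1 of the treated B6 mice it was 0.0087 and without replicate 2 of the treated Irf1-/- mice 0.0959.

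**Figure D2:**
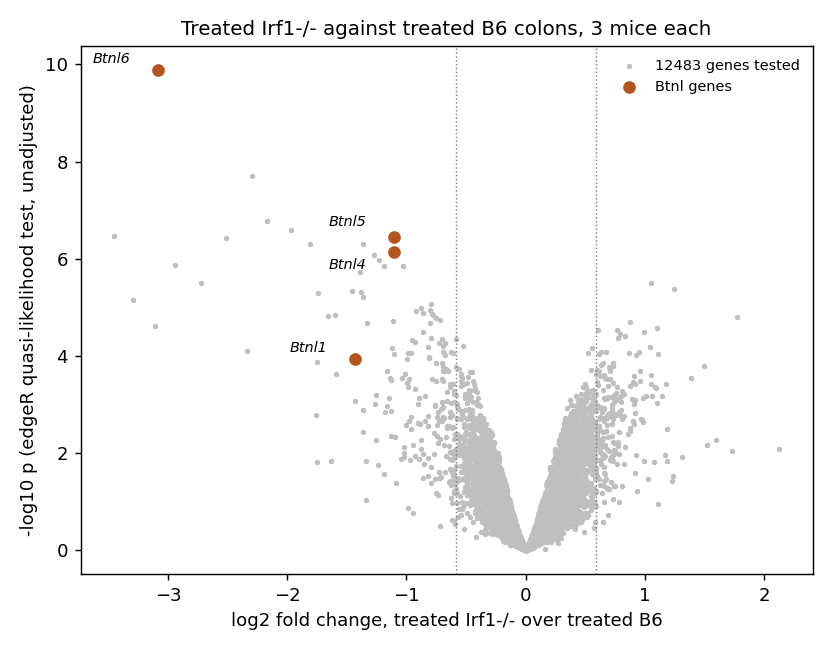
Treated Irf1-/- against treated B6 colons, 3 mice each. The horizontal axis gives the log2 fold change and the vertical axis the -log10 of the unadjusted edgeR p-value for each of 12483 genes (grey), with the Btnl genes in orange and dotted lines at a fold of 1.5. Btnl6 is the highest point of the plot at a log2 fold change of -3.09, Btnl5 and Btnl4 sit together at -1.11 and -1.10, and Btnl1 lies at -1.44 with a larger p-value.

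In a whole colon, fewer enterocytes and less Btnl RNA per enterocyte cannot be told apart from a single gene. The enterocyte markers were therefore read beside the Btnl genes. Their summed level was 27373 to 27938 CPM in treated B6 mice and 24379 to 26880 CPM in treated Irf1-/- mice, so it too was lower in all 3 Irf1-/- libraries. None of the 33 markers tested was called, where 0.312% of all genes fell by that rule. Of the 33, 7 had a positive log2 fold change, and the median was -0.23 against -0.01 for all genes. An unadjusted edgeR p under 0.05 was seen for 15 of the 33, against 2748 of the 12483 genes tested. By edgeR, the epithelial adhesion molecule Epcam gave a log2 fold change of -0.14 (adjusted p = 0.408), the brush border protein Vil1 -0.29 (adjusted p = 0.153) and the keratin Krt20 of mature colonocytes -0.54 (adjusted p = 0.107). For Vil1 and Krt20 every treated Irf1-/- library was below every treated B6 library, as for 14.5% of all genes, while Epcam overlapped. When the libraries were scaled to the summed enterocyte markers in place of all genes, an alternative chosen after seeing the data, the log2 fold change was -2.97 for Btnl6, -0.99 for Btnl5, -0.99 for Btnl4 and -1.32 for Btnl1, and the same 3 genes were called. A correction for GC content gave -3.03, -1.05, -1.03 and -1.39 in that order, with 3 genes called.

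The members were next set against each other within each library, where depth and scaling cancel. Each Btnl4 read was accompanied by 1.47 to 1.52 Btnl6 reads in treated B6 libraries and by 0.325 to 0.438 in treated Irf1-/- libraries. In untreated mice the ratio was 1.27 to 1.70 in control set 1, 1.06 to 1.30 in control set 2 and 0.354 to 0.451 in Irf1-/- colons. The ratio of Btnl5 to Btnl4 reads was 3.46 to 4.23 over the 9 B6 libraries and 3.87 to 4.28 over the 6 Irf1-/- libraries, which overlap. Btnl6 reads per Btnl1 read were 2.30 to 4.63 in B6 and 0.705 to 1.12 in Irf1-/- libraries. As a share of all Btnl reads, Btnl6 made up 21.5 ± 0.532% in treated B6 and 6.62 ± 0.738% in treated Irf1-/- mice (SD, n = 3), and Btnl5 made up 57.2 ± 1.75% and 69.3 ± 0.760%.

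**Figure D3:**
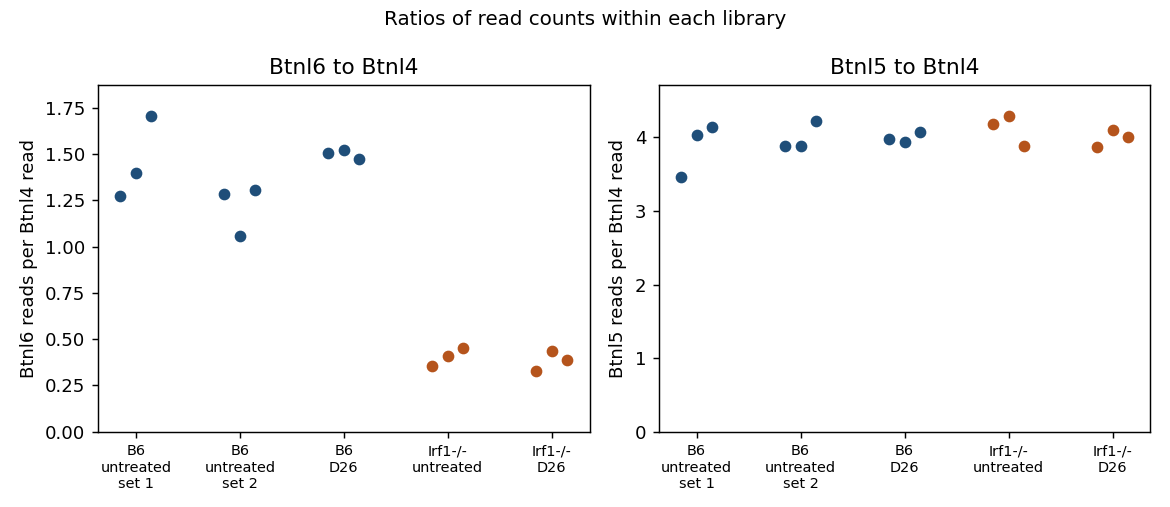
Reads of Btnl6 (left) and Btnl5 (right) per Btnl4 read within each library (vertical axes, a ratio of counts, starting at 0) for the 5 groups (horizontal axis, 3 mice each, blue for B6 and orange for Irf1-/-). The Btnl6 to Btnl4 ratio is at least 1.06 in every B6 library and at most 0.451 in every Irf1-/- library, while the Btnl5 to Btnl4 ratio lies between 3.46 and 4.28 in all 15.

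The untreated colons are described without a test, since the genes were chosen from them. Against control set 2, 3 of the 4 genes were lower in Irf1-/- colons by a fold of at least 1.5, a size of decrease shown by 0.953% of all genes. The log2 fold change was -2.42 for Btnl6 (SE 0.16, 5.36-fold), -0.83 for Btnl4 (SE 0.09), -0.79 for Btnl5 (SE 0.08) and -0.17 for Btnl1 (SE 0.12). The groups overlapped for Btnl1 and not for the other 3 genes, and all Irf1-/- libraries were lower for 7.57% of all genes. Against control set 1 all 4 genes were lower by that fold, against 1.31% of all genes. Btnl6 gave -2.86 (SE 0.12, 7.24-fold), Btnl4 -1.02 (SE 0.07), Btnl5 -0.93 (SE 0.06) and Btnl1 -0.90 (SE 0.13), with no overlap for any of the 4, as for 12.9% of all genes. Both descriptions share the untreated Irf1-/- libraries.

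Btnl1 was the member that depended most on the control set. Between the sets of untreated B6 mice, 1 Btnl gene was lower in set 2 by a fold of at least 1.5, as were 1.19% of all genes. That gene was Btnl1, at 13.7 ± 1.36 CPM in set 2 and 22.7 ± 3.63 CPM in set 1 (SD, n = 3, log2 fold change -0.73, SE 0.14). Btnl6 was also lower in every mouse of set 2, by 1.35-fold (56.9 ± 11.4 and 76.7 ± 8.28 CPM), as all libraries were for 10.9% of all genes, whereas Btnl4 and Btnl5 overlapped. The summed level of B and plasma cell markers, for the 4 of 6 in all tables, differed between the same sets. It was 219 to 239 CPM in set 2 and 578 to 637 CPM in set 1. Of these 4 markers, 0 had a positive log2 fold change, but they did not all separate the sets. Cd79a overlapped, at 1.34 to 6.35 CPM in set 2 and 2.44 to 15.5 CPM in set 1. What separates the sets is not stated in the labels.

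AOM/DSS treatment was then compared with no treatment within each genotype. In B6 mice none of the 4 Btnl genes was called against control set 1 by edgeR, and none had an unadjusted p under 0.05, where 0.0475% of all genes were called in either direction and 3730 of 12643 had an unadjusted p under 0.05. The log2 fold change was 0.08 for Btnl6 (95% interval -0.12 to 0.29, adjusted p = 0.563 by edgeR) and 0.20 for Btnl1 (95% interval -0.30 to 0.70, adjusted p = 0.565 by edgeR). It was 0.08 for Btnl5 (95% interval -0.09 to 0.26) and 0.03 for Btnl4 (95% interval -0.13 to 0.20), and for Btnl6, Btnl5 and Btnl4 a change of 1.5-fold lies outside the interval. DESeq2 called none either. With control set 2 in place of set 1, the Btnl1 value was 0.94 (adjusted p = 0.0235 by edgeR) and the Btnl6 value 0.52 (adjusted p = 0.0352 by edgeR), still short of the threshold.

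In Irf1-/- mice none of the 4 genes was called by edgeR or DESeq2 after treatment, where edgeR called 0.252% of all genes in either direction. Btnl1 was the only member with an unadjusted p under 0.05 (log2 fold change -0.32, 95% interval -0.61 to -0.03, adjusted p = 0.223 by edgeR). All 3 treated Irf1-/- mice were below all 3 untreated ones for Btnl1, as for 12.6% of all genes. Btnl6 gave -0.14 (95% interval -0.47 to 0.20), Btnl5 -0.09 (95% interval -0.22 to 0.05) and Btnl4 -0.04 (95% interval -0.25 to 0.16). This comparison shares the untreated Irf1-/- libraries with the description above.

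The difference between the responses of Irf1-/- and B6 mice was tested directly as an interaction, and no Btnl gene was called by edgeR or DESeq2. In that test edgeR called 0.016% of all genes in either direction, and 2108 of 12483 had an unadjusted p under 0.05, with no Btnl gene among them. The test shares the untreated Irf1-/- libraries, from which the genes were proposed, and the libraries of both responses. The difference was -0.52 for Btnl1 (95% interval -1.13 to 0.09, adjusted p = 0.371 by edgeR), -0.22 for Btnl6 (95% interval -0.56 to 0.13), -0.16 for Btnl5 (95% interval -0.36 to 0.03) and -0.07 for Btnl4 (95% interval -0.30 to 0.15). The interval of Btnl1 includes differences above 1.5-fold. These values rest on control set 1. Over 22 alternatives, including control set 2 and both sets together, the difference ranged from -1.25 to -0.22 for Btnl1. For Btnl6 it ranged from -0.65 to -0.10, so its low end also passed 1.5-fold. No Btnl gene was called in any of them. Markers of other cell types had other levels in treated colons, though none was called in either genotype. Summed squamous epithelial markers were 126 to 286 CPM in untreated and 313 to 874 CPM in treated colons, and summed myeloid markers 216 to 336 and 342 to 477 CPM. Their part in the Btnl values was not tested.

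**Figure D4:**
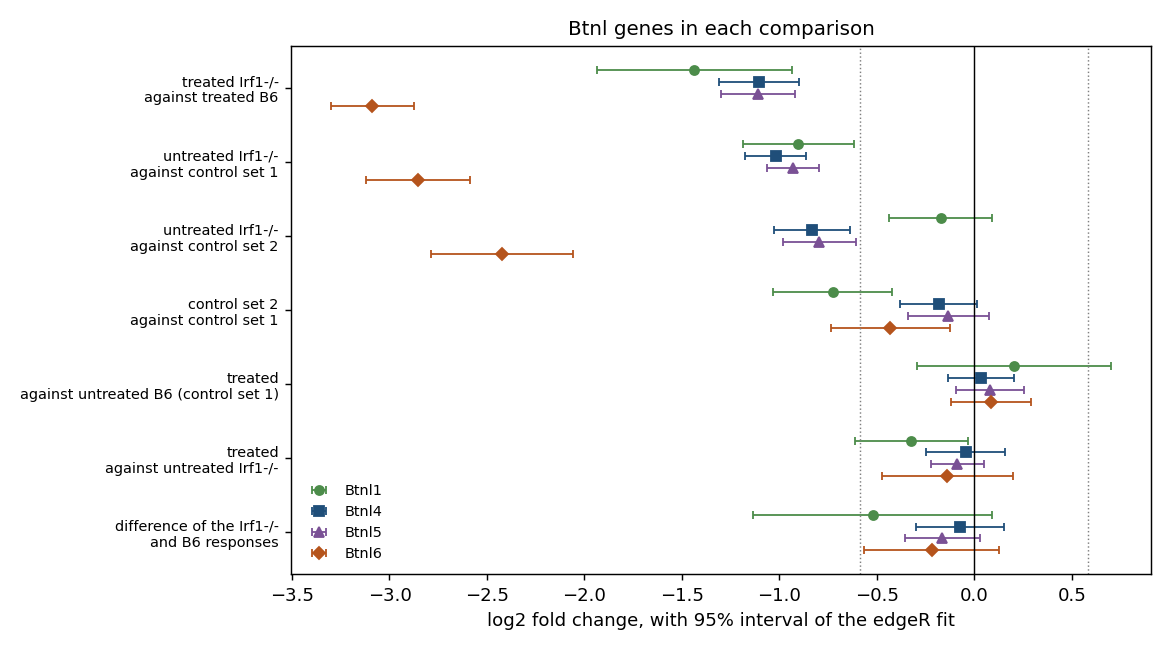
Log2 fold change of Btnl1 (circles), Btnl4 (squares), Btnl5 (triangles) and Btnl6 (diamonds) on the horizontal axis in each of 7 comparisons (vertical axis), with the 95% interval of the edgeR fit and dotted lines at a fold of 1.5. The genotype comparisons place Btnl6 between -3.09 and -2.42 and the treatment comparisons place all 4 genes between -0.32 and 0.20, while Btnl1 shifts with the control set used. The 3 comparisons among untreated mice are descriptions.

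Other genes of the pathways around the Btnl genes were read in the same comparison of treated mice. Of 31 tested genes of the interferon-gamma and Irf1 response, 8 fell and none rose (edgeR, adjusted p under 0.01), with a median log2 fold change of -0.86. The immunoproteasome subunit Psmb10 gave -2.30 (adjusted p = 0.000126 by edgeR), the peptide-loading protein Tapbp -1.37 (adjusted p = 0.000614 by edgeR) and the interferon-induced GTPase Gbp2 -3.29 (adjusted p = 0.00355 by edgeR). The decrease of Btnl6, -3.09, lay between those of Psmb10 and Gbp2.

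Among 9 tested genes listed for the support of intraepithelial lymphocytes, 1 fell and none rose by edgeR. It was Tnfrsf14, the epithelial receptor HVEM, at 23.3 ± 1.89 CPM in treated B6 and 9.02 ± 1.41 CPM in treated Irf1-/- mice (SD, n = 3, log2 fold change -1.39, SE 0.14, adjusted p = 0.00275 by edgeR). The lymphocyte growth factor Il15 gave -0.11 (adjusted p = 0.626 by edgeR) and Il18 gave 0.23 (adjusted p = 0.315 by edgeR). None of the 7 tested genes on the intraepithelial lymphocyte list was called. Their summed level in the whole colon, from whichever cells, was 136 to 147 CPM in treated B6 and 132 to 137 CPM in treated Irf1-/- mice. Of the 7, 3 had a positive log2 fold change. An unadjusted edgeR p under 0.05 was seen for 4 of them, against 2748 of the 12483 genes tested. Itgae, the integrin that holds these cells in the epithelium, gave -0.43 (adjusted p = 0.208 by edgeR). All treated Irf1-/- mice were below all treated B6 mice for Itgae, as for 14.5% of all genes, at low levels of 5.89 to 8.33 and 8.83 to 10.7 CPM. With the T cell receptor complex genes outside the tables, the number of these lymphocytes is not measured here.

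Transcription factors of enterocyte identity, which include known activators of epithelial genes, gave no call among 23 tested. Hnf4a gave -0.15 and Hnf4g 0.05, and the caudal homeobox factors Cdx1 and Cdx2 gave -0.22 and -0.42 (adjusted p = 0.265 to 0.853 by edgeR over these 4 genes). Of 31 butyrophilin and SKINT relatives, 8 were tested and none was called. The checkpoint ligand Cd274 gave -0.52 (adjusted p = 0.126 by edgeR), with all treated Irf1-/- mice below all treated B6 mice, as for 14.5% of all genes. Of the 10 tested genes nearest to the cluster, 5 on each side in the RefSeq order, only the peptide transporter Tap2 was called (log2 fold change -1.37, adjusted p = 0.00313 by edgeR). Among smooth muscle, myeloid, B and plasma cell, fibroblast, neuronal and squamous markers none was called.

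The genes most like each member were named by Pearson correlation of log2 CPM over the 15 libraries, which share 2 genotypes and so form separate clusters. Btnl4, Btnl5 and Btnl6 were each other's closest matches among 12369 genes (r = 0.989 to 0.992). Within the 9 B6 libraries their pairwise r was 0.801 to 0.927, and within the 6 Irf1-/- libraries 0.153 to 0.725. By Pearson's r, Btnl1 followed these 3 less closely, with r = 0.809 to 0.819 over 15 libraries. By Spearman's rho that gap was absent. Over the 15 libraries rho was 0.829 to 0.886 for Btnl1 with these 3, and 0.821 to 0.896 among the 3.

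Outside the family, Btnl6 was most like Ly75 (r = 0.984), an endocytic receptor, followed by Psmb10 (r = 0.980) and Uba7 (r = 0.977), the activating enzyme of the ISG15 pathway. Within the 9 B6 and the 6 Irf1-/- libraries the r with Ly75 was 0.810 and 0.449. Ly75 was at 69.2 ± 4.43 CPM in treated B6 and 15.6 ± 3.35 CPM in treated Irf1-/- mice (SD, n = 3). The 3 closest genes of Btnl5 included Psmb10 (r = 0.973) and Ly75 (r = 0.972). Within the 9 B6 and the 6 Irf1-/- libraries, these were 0.564 and -0.097 for Psmb10, and 0.692 and 0.050 for Ly75. The 3 closest genes of Btnl4 included Mettl7a2 (r = 0.971) and Entpd4 (r = 0.969), and 4 stretches of 50 bases in Btnl4 transcripts also occur in Entpd4. Within B6 and within Irf1-/- libraries, r was 0.477 and 0.667 for Mettl7a2, and 0.068 and 0.567 for Entpd4. Btnl1 was most like Ube2l6 (r = 0.918), the conjugating enzyme of the ISG15 pathway, with 0.869 within B6 and 0.766 within Irf1-/- libraries. Its next matches were Gpa33 (r = 0.895), a surface antigen of gut epithelium, and Leprotl1 (r = 0.881).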

How the data were processed

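Distal colon RNA from 15 mice was depleted of ribosomal RNA, made into stranded libraries and sequenced as 50 bp paired-end reads. Per the labels and the submitters' processing notes, the authors used TopHat2 2.0.9, Bowtie 1.0.0, featureCounts and edgeR with the mm9 build; the roles of these tools and the annotation are not given in the sources used here. The deposited values used are raw read counts per gene, already limited by the authors to genes with at least 5 CPM in at least 3 samples of a table, so a gene below that level is outside the tables. The 3 tables also hold the authors' own fold changes and p-values, which were not used, and 36 further per-sample columns, which were not used either. The untreated Irf1-/- libraries occur in 2 tables with 0 differing counts and were used once.

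Counts were tested with edgeR 4.0.16 in R 4.3.3 (TMM, glmQLFit, glmQLFTest), with the 2 groups compared in each fit and 4 groups for the interaction, and adjusted over all genes by the Benjamini-Hochberg method. A call needs a fold of at least 1.5 and an adjusted p under 0.01, the thresholds of the study. At these thresholds the paper reports many more genes in each treatment response than the 6 (B6) and 32 (Irf1-/-) called here. The cause of this gap was not tested. Levels are TMM-scaled CPM over the 12370 shared genes, computed from the counts, and per kilobase values use the first-numbered GENCODE M21 transcript of a gene. The series describes the 3 mice of a group as biological replicates. Libraries held 22266607 to 22869853 counts, and the members' lowest counts were 200 for Btnl1 and 203 for Btnl6, both in Irf1-/- libraries. The fits were checked on simulated counts. The members and gene lists were chosen with earlier results of these data known. Genes beyond the members were named if marked for display in their list, called in the treated comparison (up to 4 per list), among the 3 most correlated with a member, or called among neighbours. Some genes that this rule names are not reported here. Replicate numbers were not used as pairs. Alternatives were RLE size factors, a filter of 10 CPM in 3 libraries, DESeq2 1.42.0, all 15 libraries in 1 fit, a replicate block, a GC correction, the other control set, an adjusted p under 0.05 and leaving out each mouse. Promoter sequences are RefSeq's (GRCm38.p6), and no coordinates were moved between builds.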

Additional observations from a re-analysis of the deposited data

How the results depend on the processing

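The count of 3 Btnl genes called in treated Irf1-/- against treated B6 mice was 3 to 4 when each mouse was left out in turn, 3 with RLE size factors, the filter of 10 CPM, the GC correction or scaling to enterocyte markers (added after seeing the data), and 4 with DESeq2, with all 15 libraries in 1 fit or at an adjusted p under 0.05. With the replicate number as a block it was 1, and 1 again with the replicate block and GC correction together. Under the block Btnl6 stayed called (log2 fold change -3.09, adjusted p = 0.000407 by edgeR), while Btnl4 and Btnl5 had adjusted p-values of 0.0114 each, and 0.0185 each with the GC correction added, at log2 fold changes of -1.11, -1.11, -1.03 and -1.05. Whether same-numbered mice were handled together is not known here. Deviations of same-numbered treated mice correlated at -0.22, -0.15 and 0.18. Of these 6 libraries, 2 correlated best with their own number in the other genotype, both of replicate 3. Replicate 3 also matched its own number best in the Irf1-/- response (r = 0.25) and between the control sets (r = 0.16). It did not in the B6 response (r = -0.12). The block changed no other call. Over 15 alternatives the Btnl6 log2 fold change in treated mice ranged from -3.15 to -2.97 and its adjusted p reached at most 0.000551. In the B6 response, where nothing was called, the Btnl4 value turned to -0.0374 with the GC correction, and to -0.0370 with the replicate block and GC correction. The Btnl1 value ranged from -0.0898 (without replicate 2 of the treated B6 mice, where its sign turned) to 0.39 when each mouse was left out. Counts of genes past 1.5-fold among untreated mice were the same under every alternative run. By Spearman's rho in place of Pearson's r, 1 of the 3 most similar genes was shared for Btnl1, 0 for Btnl4, 0 for Btnl5 and 1 for Btnl6. The cause of these shifts was not tested. Limits are the 3 mice per group, the unlabelled difference between the control sets, the sequence shared by Btnl4, Btnl5 and Btnl6, and counts down to 200 for Btnl1 and 203 for Btnl6 in Irf1-/- libraries.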
